A study of Homo sapiens with 21 samples.

Results

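Osimertinib-resistant NCI-H1975 cells were compared with parental NCI-H1975 cells for the circular RNAs (circRNAs) that each population held. NCI-H1975 is an EGFR-mutant human lung cancer line, and osimertinib is an inhibitor of the EGFR tyrosine kinase. The resistant cells were kept in 1 µM osimertinib. The parental cells carry neither a resistance nor a plasmid code in their labels, and no drug or plasmid is given for them. Both populations were labelled EGFR mutant and passage 20 to 31. Each had 3 libraries, so that 6 of the 21 libraries of the series were compared. The other 15 libraries were NCI-H1975 cells transfected with FASN or with the plasmid pCMV6 and kept in 50 µg/ml G418, PC-9 cells that were gefitinib-resistant and kept in 1 µM gefitinib or carried no resistance code, and the bronchial line NL20, and they were used to estimate the spread and to show levels outside the comparison. Of 124082 circRNAs in the table, 9175 passed a filter on low counts and were tested. The labels do not say whether the resistant population is 1 clone, and resistance cannot be told apart from the presence of the drug. Nor do they tell if replicates were separate cultures, so p-values measure the spread between libraries, which may be technical.

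CircRNAs form when the spliceosome joins the end of an exon back to the start of the same or an upstream exon, which leaves a closed ring without a cap or a tail. The ring resists exonucleases, so circRNAs are long-lived, and a gene can give several of them that share exons. Their level follows the transcription of the host gene, the balance of back-splicing against linear splicing, and their dilution as cells divide. EGFR inhibitors remove a growth signal on which EGFR-mutant lung cancer cells depend, and cells that grow on in the drug have often changed their signalling and their state. The table numbers its circRNAs and pairs the numbers with no gene name, host gene or position. Roles of single circRNAs are therefore not given, and 2 that rose and 2 that fell are named by number.

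The resistant libraries held 136662, 110456 and 143161 reads, against 138753, 148290 and 170423 in the parental libraries. Resistant replicate 2 stood apart. At 110456 reads, resistant replicates 1, 2 and 3 held 22102, 15244 and 20085 distinct circRNAs, against 23383, 21528 and 22465 in the parental libraries. The difference in means, resistant minus parental, was -3315 with replicate 2 (exact two-sided permutation p = 0.2) and -1365 without it. Rare circRNAs made up this gap: 24.1% of the circRNAs of resistant replicate 2 had a single read, against 36.2% and 29.9% in the other resistant libraries and 32.8% to 39.7% in the parental ones. With at least 5 reads required, resistant replicate 2 held 4916 circRNAs and the most of the 6 libraries, against 4442 and 4697 in the other resistant libraries and 4470.5 to 4618 in the parental ones. Across the circRNAs tested, which are not independent replicates, the Spearman correlation of log2 CPM was 0.650 between resistant replicates 1 and 3, 0.583 and 0.578 between these and replicate 2, and 0.674 to 0.694 among parental libraries. CPM are counts per 1000000 reads of the circRNAs tested, after TMM scaling, which evens out libraries by the typical ratio of their counts. The main counts and named changes below are also given without resistant replicate 2.

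**Figure D1:**
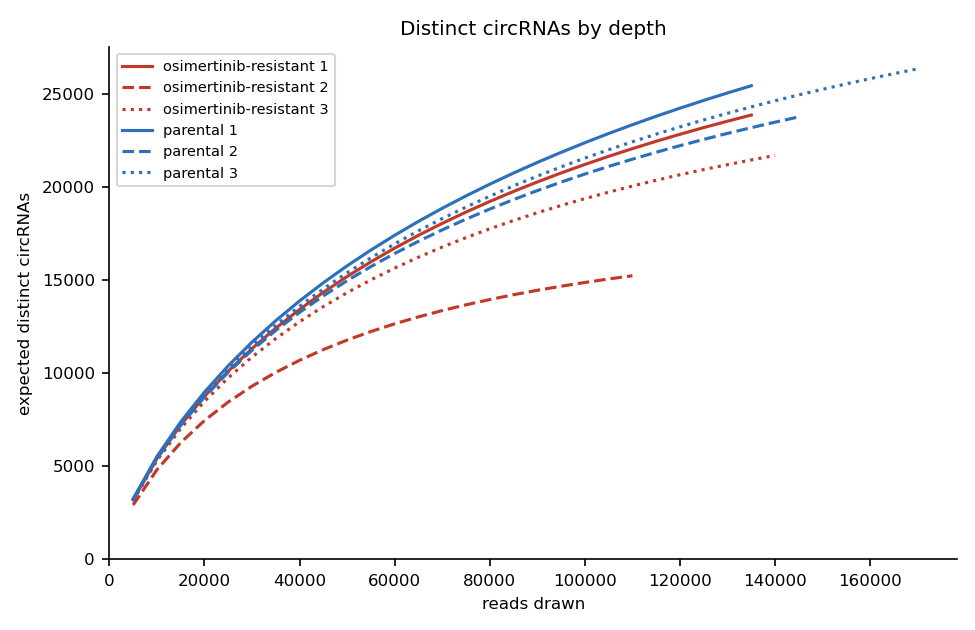
Expected number of distinct circRNAs (vertical axis) against the number of reads drawn (horizontal axis) for the 3 osimertinib-resistant and 3 parental libraries, 1 line each. Resistant replicate 2 lies under the other 5 lines and ends at 15244 distinct circRNAs at 110456 reads.

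The cell line label was checked with circRNAs that marked a line in libraries outside the comparison. A set of 64 circRNAs had at least 20 reads in the pCMV6 and FASN libraries and none in PC-9 or NL20. Of these, 59 were read in the resistant and 64 in the parental libraries. They held 0.434%, 0.488% and 0.429% of the reads in the resistant libraries, against 0.705%, 0.757% and 0.785% in the parental ones. The groups did not overlap. Much of the gap belonged to hsa_circ_6671, described below: without it the set held 0.296%, 0.282% and 0.301% in the resistant libraries, against 0.331%, 0.376% and 0.384% in the parental ones. With all members, the set held 0.523%, 0.535% and 0.528% in the pCMV6 libraries, also below every parental library. In the FASN libraries it held 0.787% to 0.874%. A second set of 187 circRNAs had at least 20 reads in PC-9 and none in pCMV6, FASN or NL20. In the resistant libraries 160 of them had no read, and in the parental libraries 165 had none. The set held 155, 120 and 133 reads in the resistant libraries, against 22, 14 and 17 in the parental ones and 1869 to 3277 in the PC-9 libraries. Of the 408 reads in resistant cells, 318 belonged to 2 members that had no read in parental cells, and the other 25 members read there had 90 reads in all, against 53 for the set in parental cells. Of 36 circRNAs restricted to NL20 by the same rule, 2 were read in the resistant and 4 in the parental libraries. Between resistant and parental libraries, the NCI-H1975 and the PC-9 set each gave p = 0.1 in an exact two-sided permutation test, which cannot go lower with 3 libraries against 3, and 0.133 after adjustment over 4 tests of this kind. The pCMV6 and FASN cells that defined both sets have no osimertinib in their labels, like the parental cells. This choice may favour high parental levels in the NCI-H1975 set and low ones in the PC-9 set, so the tests are a description.

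**Figure D2:**
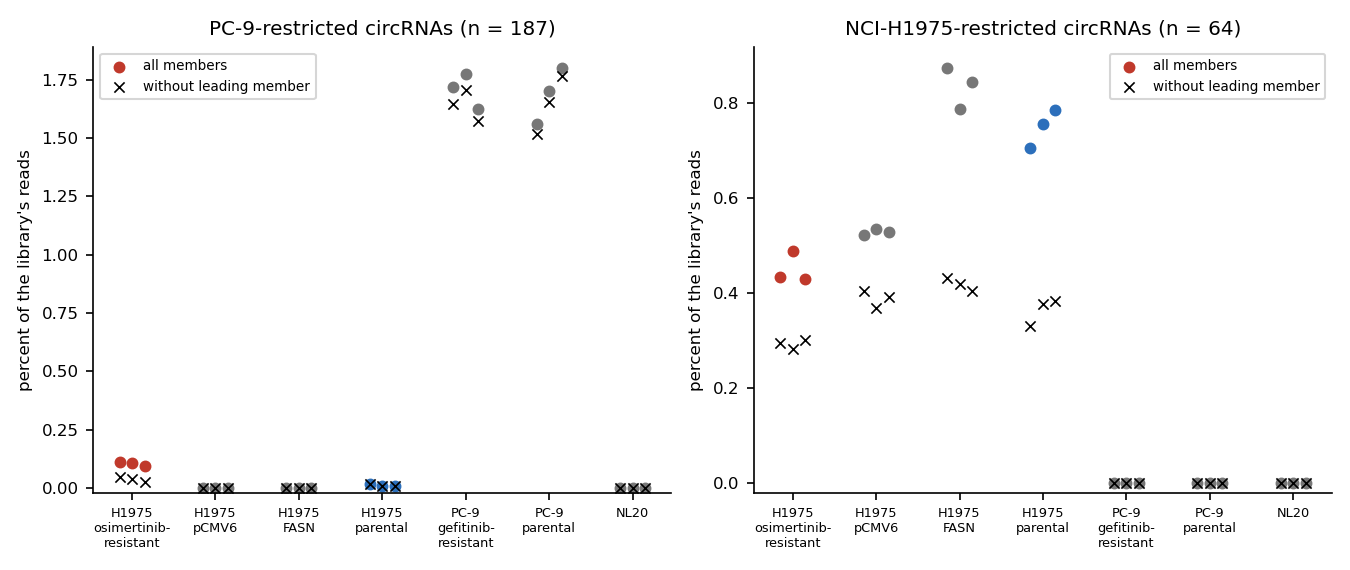
Share of a library's reads (vertical axis, percent) in circRNAs restricted to PC-9 (left) or to NCI-H1975 (right), by group. Each filled point is a library and each cross the same library without the member with the most reads in the 6 compared libraries. Resistant libraries lie at 0.0929% to 0.113% for the PC-9 set, against 0.00944% to 0.0159% in parental libraries, and the groups that defined a set's absence lie at 0.

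Resistant cells differed from parental cells at 231 of the 9175 circRNAs (2.52%), of which 125 (1.36%) rose and 106 (1.16%) fell. edgeR's quasi-likelihood test was used, and a circRNA was called at a Benjamini-Hochberg adjusted p under 0.05. At an unadjusted p under 0.05 there were 1276 (13.9%). The median log2 change was 1.93 among those that rose and -1.87 among those that fell, against -0.05 over all circRNAs tested. Of the 125 that rose, 108 were past 2-fold and 57 past 4-fold. Of the 106 that fell, 91 were past 2-fold and 48 past 4-fold. Libraries of the groups did not overlap for 113 of those that rose and 101 of those that fell. Over all circRNAs tested, the 3 resistant libraries lay above the 3 parental ones for 667 (7.27%) and below them for 947 (10.3%). In bulk libraries, fewer cells that hold a circRNA and fewer copies in each cell cannot be told apart.

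Without resistant replicate 2, 184 circRNAs were called (2.01%), 100 higher (1.09%) and 84 lower (0.916%). Of these, 152 were among the 231, with 86 higher and 66 lower in both. A further 32 were called without that library alone. Among the 125 that rose, resistant replicate 2 was the lowest of the 3 resistant libraries for 47 and the highest for 46. Among the 106 that fell it was the lowest for 48 and the highest for 23. Over all circRNAs tested it was lowest for 36.7% and highest for 27.8%. The count also depended on the parental libraries: without parental replicate 1, 2 or 3 it was 136, 143 or 135. In the 6 fits that each left out 1 compared library, 37 of those that rose and 37 of those that fell were called every time.

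**Figure D3:**
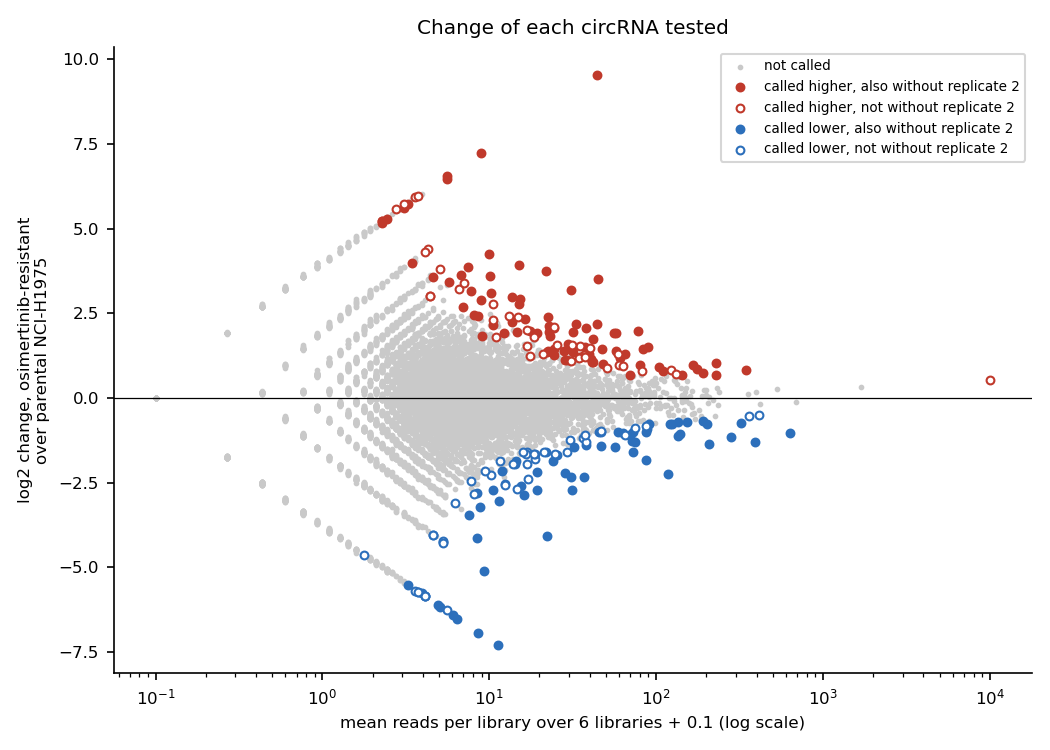
Log2 change in osimertinib-resistant over parental NCI-H1975 cells (vertical axis) against the mean reads per library over the 6 libraries plus 0.1 (horizontal log axis) for 9175 circRNAs. Red points are the 125 called higher and blue points the 106 called lower. Filled points were also called without resistant replicate 2, open ones were not, and grey points were not called.

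Calls were most frequent among abundant circRNAs. The circRNAs tested were split into 4 equal classes by abundance. In the highest class, at a median of 17.5 reads per library, 89 rose and 69 fell (6.89%), and the median size of their log2 change was 1.43. In the next classes, in falling order, the shares called were 1.53%, 1.18% and 0.48%, at median reads of 6.33, 3.67 and 1.67. The low-count filter used all 21 libraries, so the lowest class also holds circRNAs with no read in the 6 libraries. Those could not be called, and they count in every share of all circRNAs tested. The called changes of the lowest class had a median log2 size of 5.30. Small changes are harder to call at low counts, so the shares called are not comparable between classes. Of the 100 most abundant circRNAs, 12 rose and 16 fell, beside 1.36% and 1.16% of all circRNAs tested. With resistant replicate 2 left out, 9 of the 100 were called higher and 16 lower, beside 1.09% and 0.916% of all tested.

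Among circRNAs read in all 6 libraries and called both with and without resistant replicate 2, the smallest p of a rise was that of hsa_circ_15688. It had 111, 42 and 93 reads in the resistant libraries, against 11, 7 and 6 in the parental ones. Resistant replicate 2 was the lowest of its group, and the groups did not overlap. The level was 829 ± 322 CPM in resistant and 72.1 ± 29.8 CPM in parental cells (SD, n = 3 each), 11.5-fold higher (log2 change 3.52 ± 0.44 SE, edgeR adjusted p = 2.96e-12). Without resistant replicate 2 the log2 change was 3.76 (edgeR adjusted p = 2.45e-13). Outside the comparison it was highest in NL20, at 424 ± 106 CPM. It stood at 46.9 ± 30.8 CPM in pCMV6 and 24.7 ± 21.4 CPM in FASN cells, and at 76.4 ± 42.2 CPM in PC-9 cells resistant to gefitinib and 68.8 ± 5.96 CPM in the other PC-9 cells (SD, n = 3 each).

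hsa_circ_6034 had 136, 63 and 165 reads in the resistant libraries, against 39, 29 and 37 in the parental ones. Here too resistant replicate 2 was the lowest of its group and still above every parental library. The level was 1223 ± 444 CPM in resistant and 310.5 ± 59.0 CPM in parental cells (SD, n = 3 each), 3.95-fold higher (log2 change 1.98 ± 0.28 SE, edgeR adjusted p = 2.64e-09), and the log2 change was 2.21 without resistant replicate 2. The resistant mean was the highest of the 7 groups. The other NCI-H1975 groups lay close to parental cells, with 340.5 ± 107 CPM in pCMV6 and 367 ± 48.9 in FASN cells.

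The smallest p of a fall was that of hsa_circ_1940. It had 31, 42 and 34 reads in the resistant libraries, against 202, 167 and 226 in the parental ones. All resistant libraries lay far below all parental libraries. The level was 373 ± 94.7 CPM in resistant and 1750.4 ± 234 CPM in parental cells (SD, n = 3 each), 4.71-fold lower (log2 change -2.24 ± 0.23 SE, edgeR adjusted p = 2.87e-18), and the log2 change was -2.49 without resistant replicate 2. It stood at 1501 ± 49.8 CPM in pCMV6, 1264 ± 133 in FASN, 316 ± 54.5 in NL20, 742 ± 278 in gefitinib-resistant PC-9 and 864 ± 53.5 in other PC-9 cells. The resistant libraries overlapped those of NL20 and lay below every library of the other groups.

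hsa_circ_6671 was the ninth most abundant circRNA of the 6 libraries. It had 189, 227 and 183 reads in the resistant libraries, against 519, 564 and 683 in the parental ones. The level was 2085 ± 458 CPM in resistant and 5173 ± 291 CPM in parental cells (SD, n = 3 each), 2.48-fold lower (log2 change -1.31 ± 0.17 SE, edgeR adjusted p = 6.70e-11), and the log2 change was -1.54 without resistant replicate 2. It was a circRNA of NCI-H1975 in these data, with 0 reads in each PC-9 and NL20 library. FASN cells held it at 5482 ± 522 CPM, close to parental cells. The pCMV6 cells held 1758 ± 327 CPM, so the low level was not particular to the resistant cells.

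**Figure D4:**
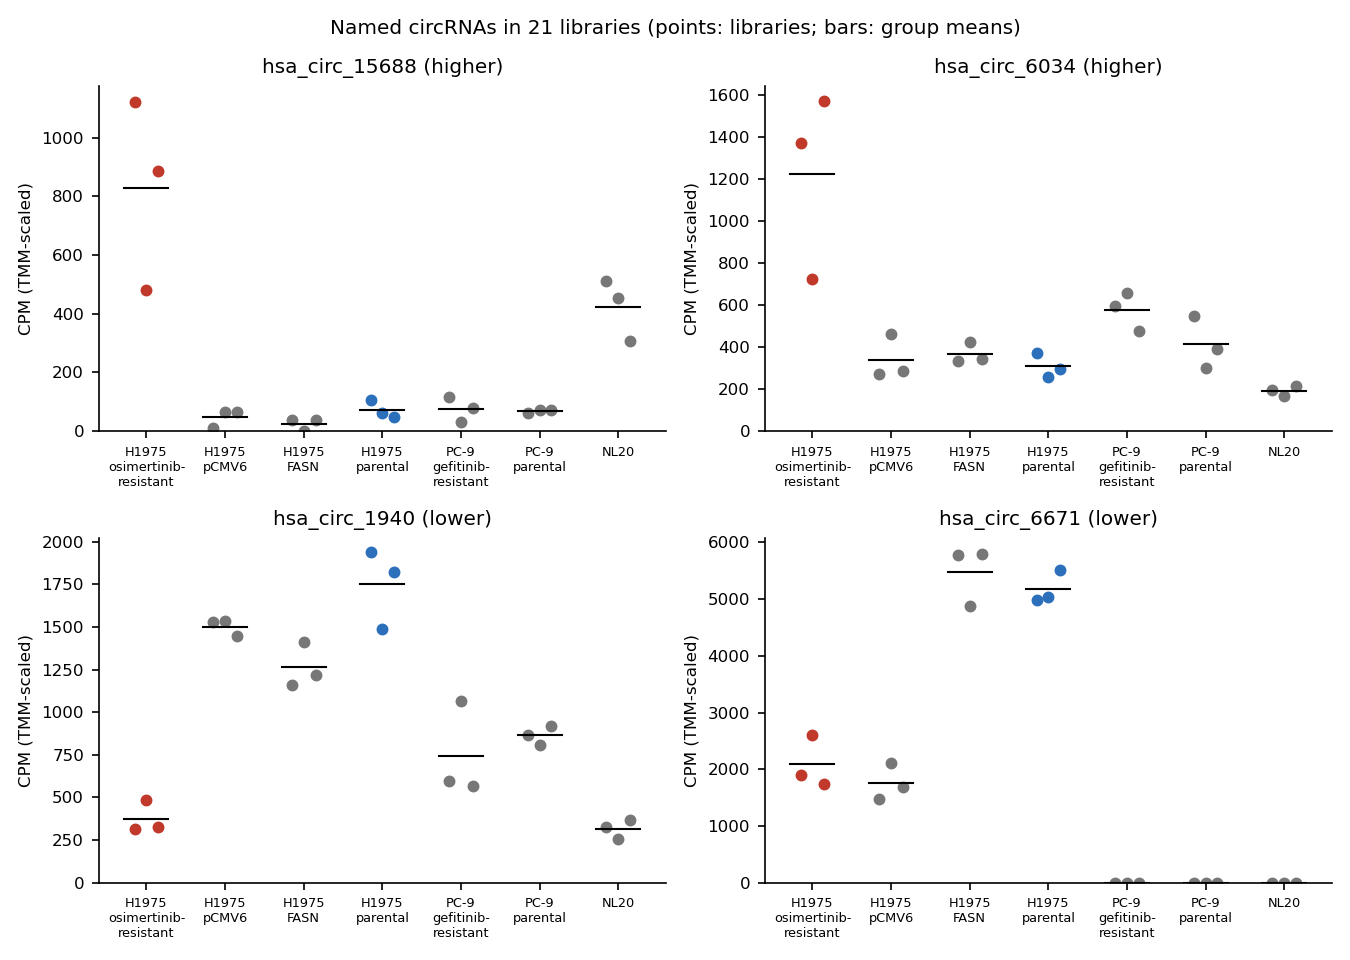
Level of the 4 named circRNAs (vertical axis, TMM-scaled CPM from 0) in the 7 groups of 3 libraries. Points are libraries (red resistant, blue parental, grey the other groups) and bars group means. The resistant libraries of hsa_circ_15688 and hsa_circ_6034 lie above, and those of hsa_circ_1940 and hsa_circ_6671 below, all parental libraries.

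Some circRNAs that changed were numbered next to others that changed the same way, and this share was larger than over all circRNAs tested. The shares over all tested were not matched for abundance, and calls were most frequent among abundant circRNAs. Numbers follow first the library in which a circRNA was first read, and what orders them within a library is not given in the sources used here. Neighbours in number resembled each other also in libraries outside the comparison: over 9174 pairs of neighbours, the difference in log2 CPM between PC-9 and NL20 had a Pearson correlation of 0.34 (Spearman 0.31), given as a description. Of the 125 that rose, 23 (18.4%) stood directly next to another that rose in the order of those tested, beside 2.59% of all circRNAs tested. Of the 106 that fell, 6 (5.66%) stood next to another that fell, beside 2.29% of all tested. These shares, with resistant replicate 2 left out, were 21% of 100 and 11.9% of 84, beside 2.10% and 1.81% of all tested. A circRNA that rose stood next to one that fell in 1 case (0.8% of the 125), beside 2.29% of all tested. Within 10 numbers of one that fell there were 12 of the 125 (9.6%), beside 7.63% of all tested. With gaps of at most 10 numbers, 38 of the 125 that rose (30.4%) lay in 13 runs. Over all circRNAs tested, 8.10% stood within 10 numbers of one that rose. For those that fell, 15 of the 106 (14.2%) lay in 7 runs, and 7.63% of all tested stood within 10 numbers of one that fell. Some of the 23 belong to the longest run or to the neighbours of hsa_circ_1940. Both are described below and are not separate observations.

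The longest run, with gaps of at most 10 numbers between circRNAs that rose, held 13 circRNAs tested. This run was picked out for its length after the values were seen, so its values are a description. Of the 13, 8 rose, none was called lower and all 13 had a positive log2 change, between 0.61 and 6.48. Together they had 291, 205 and 271 reads in the resistant libraries, against 28, 68 and 48 in the parental ones. The groups did not overlap. In CPM the sum was 2624 ± 293 in resistant and 421 ± 171 in parental cells, with 564 ± 89.8 in pCMV6, 562 ± 50.9 in FASN, 1641 ± 68.6 in NL20, 732 ± 164 in gefitinib-resistant PC-9 and 1005 ± 378 in other PC-9 cells (SD, n = 3 each). The best counted member had 79, 31 and 67 reads in the resistant libraries, against 10, 20 and 19 in the parental ones. The fit without resistant replicate 2 called 6 of the 13 higher.

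Several neighbours of hsa_circ_1940, which fell, were called in the other direction. Within 10 numbers of it 13 others were tested, of which 5 rose and none fell, with and without resistant replicate 2, beside 1.36% higher and 1.16% lower over all circRNAs tested. The remaining 8 were not called, 5 with positive and 3 with negative log2 changes. The one numbered 6 after it had 102, 77 and 85 reads in the resistant libraries, against 38, 38 and 50 in the parental ones (log2 change 1.29 ± 0.25 SE, edgeR adjusted p = 6.96e-05). The one numbered 3 before it had 24, 38 and 46 reads in the resistant libraries, against 5, 13 and 11 in the parental ones (log2 change 2.11 ± 0.35 SE, edgeR adjusted p = 8.31e-07). The negative changes were -0.54, -1.33 and -0.93. Around hsa_circ_15688, 8 neighbours were tested and 1 rose, against the same 1.36% of all tested, with 49, 26 and 35 reads in the resistant libraries, against 5, 11 and 8 in the parental ones. Around hsa_circ_6034, 1 of 8 rose, with 64, 26 and 92 reads in the resistant libraries, against 29, 29 and 46 in the parental ones, where resistant replicate 2 overlapped the parental libraries. Neither of the 2 neighbours tested around hsa_circ_6671 was called.

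**Figure D5:**
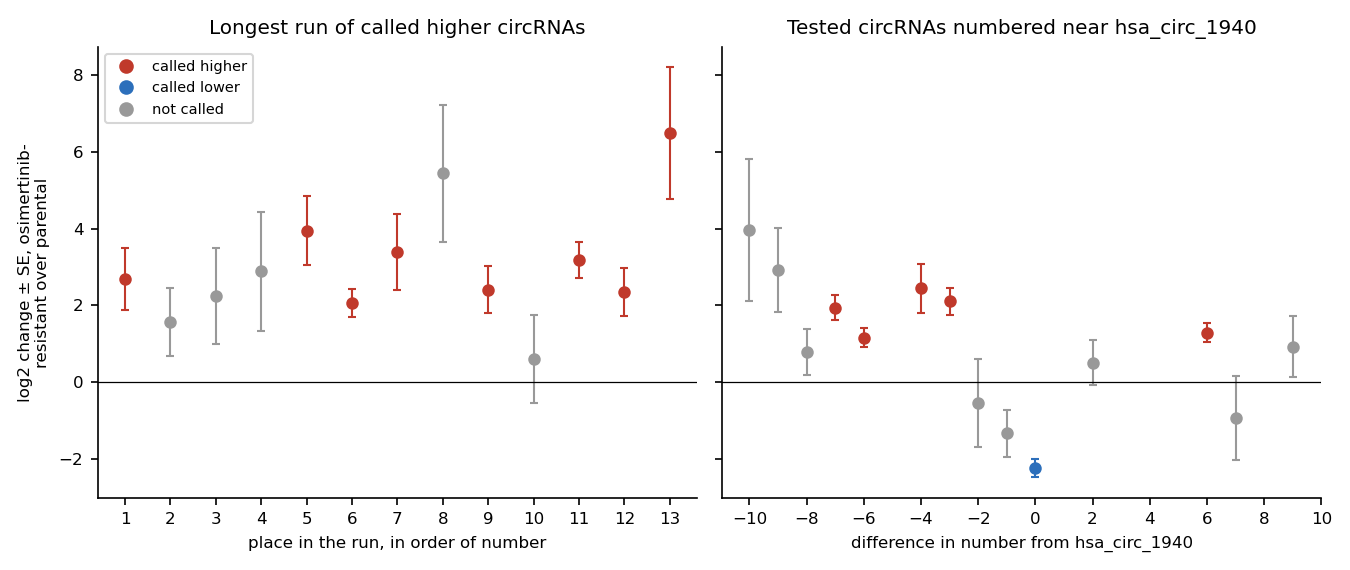
Log2 change in osimertinib-resistant over parental cells with its SE (vertical axis) for the 13 circRNAs tested of the longest run of called higher circRNAs, in order of number (left), and for hsa_circ_1940 and the 13 tested within 10 numbers of it (right). All 13 values of the run are above 0, and hsa_circ_1940, at -2.24, stands below 5 neighbours that rose.

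Some circRNAs were read in 1 of the populations alone. Of those that rose, 14 had no read in parental cells, and of those that fell, 16 had no read in resistant cells. Among all circRNAs tested, 162 with a read in resistant cells had none in parental cells, and 259 the reverse. With at least 10 reads in the population that had any, these were 39 and 83. Resistant replicate 2 had a read for 6461 of the circRNAs tested, against 7781 and 7598 in the other resistant libraries. The parental libraries had a read for 7792 to 8104, so an absence was not equally easy to reach in both populations. The 14 had between 13 and 265 reads in the resistant libraries, with a median of 18.5, and 10 were read in all 3. Set against a floor of 3 counts over the parental group, they were 5.06-fold to 103-fold higher. The 16 had between 10 and 67 reads in the parental libraries, with a median of 24, and 15 were read in all 3. They were 2.85-fold to 19.1-fold lower, by the same floor over the resistant group. The floor allows for counting error in the group without reads. It does not cover counting error in the other group or the spread between libraries, so the folds are not lower bounds. When resistant replicate 2 was left out, 10 of the 14 and 10 of the 16 were called.

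The gained circRNAs were not limited to resistant cells. All 14 were read in PC-9 and 12 in NL20, but 4 had no read in the pCMV6 or FASN libraries. The low-count filter used all 21 libraries, so a circRNA could be tested through its reads in PC-9 or NL20. These counts are therefore a description. Of the 9175 circRNAs tested, single PC-9 libraries had a read for 7264 to 7937 and single NL20 libraries for 7774 to 7961. The 2 gained circRNAs with the most reads were the 2 members of the PC-9 set that held 318 reads, described above. The third by reads had 4, 13 and 16 reads in the resistant libraries, against none in the parental ones (edgeR adjusted p = 0.00499, and 0.0295 without resistant replicate 2). The fourth had 19, 0 and 14 reads in the resistant libraries, against none in the parental ones (edgeR adjusted p = 0.0111), so resistant replicate 2 lacked it too. All 16 lost circRNAs were read in the pCMV6 or FASN libraries, and 14 were read in PC-9. The same filter bears on these counts, which are a description too. Single pCMV6 and FASN libraries had a read for 7152 to 7983 of the circRNAs tested. The second lost circRNA by reads had 0 reads in each resistant library, against 21, 15 and 15 in the parental ones (edgeR adjusted p = 0.000413, and 0.00368 without resistant replicate 2). FASN cells had 44 reads of it, and pCMV6, PC-9 and NL20 cells had none. Another, with none in resistant cells against 7, 12 and 10 in the parental libraries (edgeR adjusted p = 8.28e-06), had 591 reads in NL20.

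Among the 10 most abundant circRNAs of the 6 libraries, 1 rose and 3 fell, beside 1.36% and 1.16% of all circRNAs tested. The most abundant had 9542, 12558 and 10966 reads in the resistant libraries, against 8191, 9239 and 9921 in the parental ones. These were 6.98%, 11.4% and 7.66% of the reads in resistant libraries, against 5.90%, 6.23% and 5.82% in parental ones. It rose 1.43-fold (log2 change 0.52 ± 0.09 SE, edgeR adjusted p = 3.06e-06), but without resistant replicate 2 the log2 change was 0.29 and was not called (edgeR adjusted p = 0.0933). The second most abundant had 1867, 1449 and 1931 reads in the resistant libraries, against 1522, 1576 and 1778 in the parental ones (log2 change 0.33 ± 0.12 SE, edgeR adjusted p = 0.126). As shares, its 1.31% to 1.37% in resistant libraries lay above the 1.04% to 1.10% in parental ones. The fourth fell to 0.289% ± 0.036 of reads in resistant cells, against 0.591% ± 0.014 in parental cells (SD, n = 3 each, log2 change -1.03 ± 0.14 SE, edgeR adjusted p = 1.01e-10), with a log2 change of -0.96 without resistant replicate 2. The sixth fell with a log2 change of -0.52 and was not called without resistant replicate 2 (edgeR adjusted p = 0.0365, and 0.142 without it). The ninth was hsa_circ_6671. For the seventh, resistant replicate 2 stood apart with 156 reads, against 495 and 442 in the other resistant libraries and 426 to 544 in the parental ones.

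The 10 most abundant circRNAs of each library together took 10.9%, 15.4% and 11.6% of the reads in resistant libraries, against 10.1%, 10.4% and 9.94% in parental ones. The groups did not overlap (exact two-sided permutation p = 0.1, the smallest possible, 0.133 after adjustment over 4 tests). The gap was that of the most abundant circRNA: with it removed, the means were 4.60% in resistant and 4.69% in parental libraries.

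Levels of the called circRNAs in the other groups are given as a description, since the circRNAs were chosen by the compared libraries. The transfected cells are of the same line as the parental cells, so the choice favours levels near the parental ones in them. The median level of the 125 that rose was 372 CPM in resistant cells, 116 in pCMV6, 117 in FASN and 94.0 in parental NCI-H1975 cells. It was 224 CPM in NL20, 294 in gefitinib-resistant PC-9 and 256 in other PC-9 cells. All 6 transfected libraries lay below all 3 resistant libraries for 76 of the 125, beside 3.39% of all circRNAs tested. The mean level in PC-9 libraries exceeded that in the transfected NCI-H1975 libraries for 98 (78.4%), beside 48.9% of all tested, and the NL20 mean did so for 87 (69.6%), beside 48.9%.

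The 106 that fell had a median level of 75.7 CPM in resistant cells, 198 in pCMV6, 247 in FASN and 292 in parental NCI-H1975 cells, with 169.8 in NL20, 171 in gefitinib-resistant PC-9 and 188 in other PC-9 cells. All 6 transfected libraries lay above all 3 resistant libraries for 61 of them, beside 3.37% of all tested. The PC-9 mean exceeded the transfected NCI-H1975 mean for 31 (29.2%) and the NL20 mean did so for 24 (22.6%). Together the 106 took 2.85%, 2.69% and 2.70% of the reads in resistant libraries, against 6.07%, 5.92% and 5.94% in parental ones. The 125 that rose, without the most abundant circRNA, took 5.11%, 5.10% and 5.00% in resistant libraries, against 2.10%, 1.99% and 2.07% in parental ones. For these sums, resistant replicate 2 lay close to the other resistant libraries.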

How the data were processed

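The authors deposited 1 table of raw counts (whole numbers of reads for each circRNA), and each count column was matched to a sample by name. Per the submitters' processing notes, the build hg38 and the tools HISAT2 and DESeq2 are named, with no role given. How circRNAs were called, filtered and annotated is not given in the sources used here. A sequencing provider isolated circular RNA from column-purified total RNA and made the libraries, per the labels' protocols. Library totals ran from 95808 to 203079 reads.

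Counts were tested in R 4.3.3 with edgeR 4.0.16: filterByExpr (minimum count 5, minimum total 15), TMM scaling, and 1 robust quasi-likelihood fit with a mean for each of 7 groups over all 21 libraries. P-values were adjusted over all circRNAs tested. The SE is the log2 change divided by the square root of its F statistic. Fits that leave out a library kept the circRNAs of the full fit. Log2 CPM used a prior count of 2. Thinned values are means of 100 draws. DESeq2 1.42.0 was an alternative. The code was tested on simulated counts.

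Named circRNAs are the 2 that rose and the 2 that fell with the smallest p among those read in all 6 libraries and called with and without resistant replicate 2. Members and lists were chosen with earlier results of these data known. None of the 6 compared libraries was a copy of another of its group: a chi-square of their counts, divided by its degrees of freedom, was 2.68 to 4.79 among resistant and 2.23 to 2.42 among parental libraries.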

Additional observations from a re-analysis of the deposited data

Results flagged for a closer look

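The change in resistant over parental cells was compared between NCI-H1975 with osimertinib and PC-9 with gefitinib. Only the 4 named circRNAs and the most abundant one were looked at. The difference was tested in the same edgeR fit and adjusted over all circRNAs tested. The named ones were chosen by a small p in NCI-H1975, which favours a difference from PC-9, so these values are a description. The difference passed for 4 of them. It did not for hsa_circ_6671 (-1.31, edgeR adjusted p = 0.9998), which had 0 reads in PC-9. The drugs differ as well as the lines. For hsa_circ_15688 the NCI-H1975 log2 change exceeded the PC-9 one by 3.39 (edgeR adjusted p = 0.00066), with a PC-9 log2 change of 0.13 ± 0.55 SE. For hsa_circ_6034 it exceeded it by 1.49 (edgeR adjusted p = 0.0207), with 0.49 ± 0.29 SE in PC-9. For hsa_circ_1940 the difference was -2.02 (edgeR adjusted p = 5.09e-07), with -0.21 ± 0.22 SE in PC-9. For the most abundant circRNA the difference was 0.55 (edgeR adjusted p = 0.0053), and 0.32 without osimertinib-resistant replicate 2 (edgeR adjusted p = 0.265). The differences for hsa_circ_15688 and hsa_circ_1940 passed in all 21 alternative fits. That of hsa_circ_6034 failed in 7 of 21, with values from 1.21 to 1.74, and that of the most abundant circRNA in 6 of 21.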

How the results depend on the processing

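The 4 named circRNAs kept direction and call in all 16 alternative fits of each. They were chosen by a small p and by a call without resistant replicate 2. That fit was therefore passed by choice, and the others use the same counts. The count of 231 calls was 53 without the low-count filter, where 124082 circRNAs were tested, between 135 and 199 with 1 compared library left out, 226 with the replicate number as a block, 325 with DESeq2, 189 in a fit of the 6 libraries alone and 230 when scaling ignored the most abundant circRNA. Same-numbered libraries deviated together with correlations of 0.041, 0.067 and -0.0059, so the numbers were not taken to pair them. Without resistant replicate 2 and with the low-count filter set anew, an alternative added after the data were seen, 159 were called, 138 of them among the 231. The log2 change of the most abundant circRNA was 0.41 without the low-count filter (edgeR adjusted p = 0.463), 0.31 with the filter set anew without resistant replicate 2, and 0.29 to 0.61 with a library left out, and the cause was not tested. The difference in distinct circRNAs was -592 with at least 2 reads and turned to 137.5 with at least 5 reads, and the difference in the share of the 10 most abundant turned to -0.0921 percentage points with the most abundant circRNA removed. The summed shares of line-restricted circRNAs kept their direction in all 10 alternatives each, at smallest 0.0251 (PC-9 set) and -0.0708 (NCI-H1975 set) percentage points without the leading member. Depth limits small changes: 4759 of the circRNAs tested had a mean under 5 reads in the 6 libraries.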

Other observations

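Resistant replicate 2 and pCMV6 replicate 1 have the same total of 110456 reads, but hold 15244 and 19494 distinct circRNAs.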
